A study of Mus musculus with 12 samples.

Results

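H3K36ac regions with a called peak in 2 or 3 of 3 liver tumour libraries of Trem2-MKO mice and 0 of 3 of LysM-Cre mice were described here. Signal outside the called peaks was not measured. The study mapped H3K36ac by chromatin immunoprecipitation and sequencing in whole liver tumours. Both genotypes received anti-PD-1, so no untreated tumour entered. LysM-Cre mice, labelled with the Cre driver alone, were the comparison group, and Trem2-MKO mice had a myeloid-specific Trem2 knockout. Each genotype had 3 libraries, and the 6 inputs were not analysed here. The sources used here give no strain, age, sex or method of raising the tumours, and do not name the driver of the Trem2 knockout. The regions were chosen by the peak calls themselves: intervals of the 6 lists were merged where they shared 1 bp or more on chromosomes 1 to 19, and a region was kept when 2 or 3 of 3 Trem2-MKO lists and 0 of 3 LysM-Cre lists had a peak in it. This left 599 of 103935 union regions (0.576%), covering 396 kb. The mirror-image rule left 1689 regions of LysM-Cre only (1.63%). The rule fixes the difference between the genotypes, so no test of it is given and nothing is read from these counts.

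H3K36ac is the acetylation of a lysine in the tail of histone H3, a mark known mainly from the start of active genes, where it sits on the first nucleosomes of the transcribed part. TREM2, a receptor that binds lipids on macrophages and signals through the adaptor DAP12, is known to restrain some immune responses in tumours. Cre under the lysozyme M gene is active in macrophages, monocytes and neutrophils. PD-1 is an inhibitory receptor of T cells. Whole tumour was used, so a peak can come from tumour cells, stroma or leukocytes, and fewer cells of a type cannot be told apart from less mark per cell.

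Of the 599 regions, 17 reached the promoter of an annotated gene (250 bases before the start to 50 bases from it on; 575 regions lay on the 18 chromosomes with promoters in the table). The 5 sequences below are the 250 bases before the start of such promoters. Shown are the 3 promoters reached by regions in all 3 Trem2-MKO libraries and the 2 strongest coding promoters reached in 2 libraries. The sequences come from RefSeq on GRCm38.p6 and run 5′ to 3′ on the strand of the gene, with each CpG in capitals. Only at Nsf did the 250 bases lie wholly within the region. The regions ended at 83507086 (Dguok), 33951310 (Zup1), 23633636 (0610010F05Rik) and 85432876 (4921524J17Rik), so most of those 250 bases lay outside them.
Dguok, chr6:83506970-83507219, minus strand: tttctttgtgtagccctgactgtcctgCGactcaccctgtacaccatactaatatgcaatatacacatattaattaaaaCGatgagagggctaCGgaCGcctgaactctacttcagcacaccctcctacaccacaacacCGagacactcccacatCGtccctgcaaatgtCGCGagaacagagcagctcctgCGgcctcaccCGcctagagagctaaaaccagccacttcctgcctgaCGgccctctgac
Zup1, chr10:33951260-33951509, minus strand: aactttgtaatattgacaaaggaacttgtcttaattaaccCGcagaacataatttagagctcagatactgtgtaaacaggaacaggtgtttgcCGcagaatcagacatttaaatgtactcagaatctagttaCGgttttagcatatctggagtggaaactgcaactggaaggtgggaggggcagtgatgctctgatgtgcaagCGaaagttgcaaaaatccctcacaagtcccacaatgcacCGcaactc
0610010F05Rik, chr11:23633632-23633881, minus strand: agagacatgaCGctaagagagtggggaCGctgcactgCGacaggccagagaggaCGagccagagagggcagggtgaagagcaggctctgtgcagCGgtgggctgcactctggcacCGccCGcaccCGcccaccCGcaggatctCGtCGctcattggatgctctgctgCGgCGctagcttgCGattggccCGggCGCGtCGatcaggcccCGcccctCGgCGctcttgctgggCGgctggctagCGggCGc
Nsf, chr11:103954057-103954306, minus strand: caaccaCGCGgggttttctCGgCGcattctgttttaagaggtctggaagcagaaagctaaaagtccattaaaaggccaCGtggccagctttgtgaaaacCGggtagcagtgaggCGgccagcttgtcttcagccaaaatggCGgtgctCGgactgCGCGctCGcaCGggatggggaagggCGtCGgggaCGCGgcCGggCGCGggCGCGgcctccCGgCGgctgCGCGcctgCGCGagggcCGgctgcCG
4921524J17Rik, chr8:85432842-85433091, minus strand: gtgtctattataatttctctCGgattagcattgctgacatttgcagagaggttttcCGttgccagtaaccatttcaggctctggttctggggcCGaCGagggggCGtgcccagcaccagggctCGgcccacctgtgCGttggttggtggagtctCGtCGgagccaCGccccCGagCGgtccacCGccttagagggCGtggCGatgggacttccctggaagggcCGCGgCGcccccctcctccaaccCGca

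The number of CpGs differed widely between these promoters. Zup1 had 5 in 250 bases and Dguok 11, whereas 4921524J17Rik had 19, 0610010F05Rik 24 and Nsf 30. Over the 22 promoter windows reached by the 599 regions, which belong to 19 genes, the median was 17.5 CpGs (2 to 46), against 6 in all 31396 windows. Of the 22, 12 (54.5%) had a GC content of 55% or more and an observed-to-expected CpG ratio of 0.6 or more, and so did 28.2% of all windows. The 91 windows reached by regions of LysM-Cre only had 49.5%. The share also varied among all promoter windows with a peak in Trem2-MKO replicates 1, 2 and 3, at 21.1%, 42.5% and 49.1%. Among windows of coding genes only, 9 of the 17 reached (52.9%) met both limits, against 38.1% of all 20085, with medians of 19 and 10 CpGs. These shares were not tested.

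Short motifs were searched on both strands of the same 250 bases. The GC box letters GGGCGG were in 8 of 22 windows (36.4%; 33.0% of all windows), CCAAT in 7 (31.8%; 33.7%) and TATAAA in 3 (13.6%; 12.4%). The ETS letters CCGGAAG (7.01% of all windows) and the cyclic-AMP response element TGACGTCA (1.58%) were in 0 of 22. A match here is a match of letters only.

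Libraries were not alike, and this bears on every count. On chromosomes 1 to 19, Trem2-MKO lists held 29759 (replicate 1), 6823 (replicate 2) and 4627 peaks (replicate 3), and LysM-Cre lists 18167, 29731 and 19807. The whole number of fragments at each summit was recovered from the authors' fold and p-value for 100% of peaks. Trem2-MKO replicates 2 and 3 stood apart: their summits had medians of 20 and 23 fragments and pileups scaled by 0.903 and 0.798, whereas the median was 11, unscaled, in the other 4 libraries. Trem2 and Lyz2 had no peak in any library within the gene or 1 kb of it, so the lists did not check the deletion. Of 30 genes checked, which were Trem2 and markers of liver and immune cell types, 17 had a peak in some library. Only 1, the hepatocyte gene Hpx, lay within 1 kb of one of the 599 regions. Of the 5 hepatocyte genes, 3 had a peak in some library, and Alb and Apoa1 had a peak in 0 of 6.

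Most of the regions, 499 of 599, had a peak of replicate 1, which had the longest list. Regions in replicates 1 and 2 only numbered 290, which is 0.974% of the list of replicate 1 and 4.25% of that of replicate 2. Another 186 were in replicates 1 and 3 only (0.625% and 4.02%) and 100 in replicates 2 and 3 only (1.47% and 2.16%). All 3 lists held 23 regions (0.0221% of union regions). Without replicate 1, 2 or 3, and asking for both remaining Trem2-MKO lists, 123, 209 or 313 regions were left. With peaks of a −log10 p of 5 or more, 161 regions were found, and with lists of equal length 236.

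**Figure D1:**
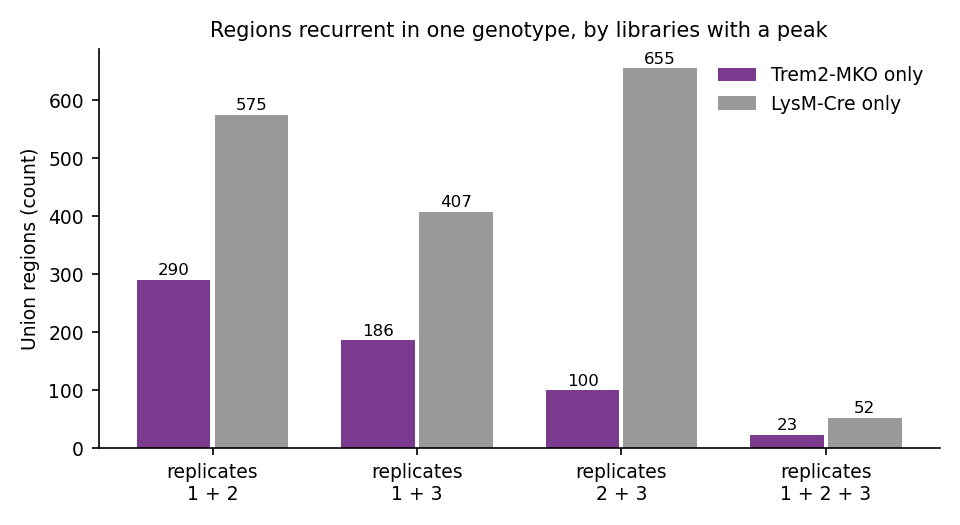
Number of union regions with peaks in only one genotype, by the replicates that had a peak. Trem2-MKO bars fall from 290 for replicates 1 and 2 to 100 for replicates 2 and 3, and the bars for all 3 replicates hold 23 and 52 regions.

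The regions were somewhat stronger than the rest of their lists. In replicate 1 the median −log10 p was 4.73 for the 499 peaks in the regions and 4.39 for the other 29260. In replicate 2 the medians were 4.83 (413 peaks) and 4.48, and in replicate 3 they were 4.83 (309 peaks) and 4.32. A q-value of 0.01 or less was reached by 30.5%, 27.6% and 20.7% of the peaks in the regions and by 16.9%, 12.3% and 8.64% of the others. In regions of LysM-Cre only, 19.6%, 26.0% and 25.0% of peaks reached it. Most regions were still weak: 61 of 599 (10.2%, exact 95% Clopper-Pearson interval 7.88% to 12.9%) had a q-value of 0.01 or less in every library with a peak. Intervals given here cover counting error over regions only, and PCR and whole-genome amplification make fragments less than independent.

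The rule asks for overlapping intervals, so peaks of a region had to lie close together, and their spacing is a description. The summits of the 576 regions in 2 libraries were a median of 136 bp apart (quartiles 57 and 266 bp), and 231 (40.1%) were within 100 bp. Among 2070 regions with 1 peak of each genotype the median was 160 bp and 34.9% were within 100 bp, and among 1635 regions in 2 LysM-Cre libraries it was 162 bp and 33.5%. The intervals shared a median of 87.4% of the shorter peak, against 72.9% with 1 peak of each genotype and 75.9% in 2 LysM-Cre libraries. In 20 of the 576 regions they shared under 10%. These differences were not tested.

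At the edge of the rule, 9 regions had a LysM-Cre peak within 200 bp, the nearest at 30 bp. Another 99 regions were left out for a peak of 1 LysM-Cre library, which shared at least 62 bp with a Trem2-MKO peak. The median −log10 p of Trem2-MKO peaks was 4.83 in regions kept with 2 libraries, 5.29 in those 99 and 4.32 in the 37541 regions with 1 Trem2-MKO and 0 LysM-Cre libraries.

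The strongest region in all 3 Trem2-MKO libraries lay within Naaladl2, a large gene related to glutamate carboxypeptidases (chromosome 3, 24197262 to 24197843, mm10). Its summits held 47, 86 and 74 fragments in replicates 1, 2 and 3 over local backgrounds of 6.36, 18.8 and 22.6. The −log10 p-values were 25.2, 26.4 and 14.3, and the 3 summits lay within 50 bp. All 3 libraries were high here, and this was the top peak of the lists of replicates 1 and 2.

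Next came regions within Herc3, a HECT-type ubiquitin ligase gene (34, 56 and 55 fragments, summits within 58 bp), and 347 kb from Acvr2a, an activin receptor gene (27, 54 and 68 fragments). Etl4, known from the development of the intervertebral discs, followed with 50, 95 and 89 fragments over backgrounds of 15.4, 39.9 and 42.6. Kmt2e, a relative of the MLL methyltransferases that reads methylated histone H3, had 28, 45 and 73 fragments. Its −log10 p-values were 10.3, 7.63 and 18.5, so replicate 3 was highest. Local backgrounds in replicates 1, 2 and 3 were 6.36, 19.9 and 17.5 at Herc3 and 5.83, 19.9 and 20.1 at the Acvr2a region. At Kmt2e they were 6.36, 16.6 and 17.5.

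At 3 of the 23 regions the interval reached into a promoter window without covering it. Zup1, a deubiquitinase gene for lysine-63-linked chains, had 18, 29 and 35 fragments and folds of 4.47, 3.02 and 3.21. Dguok, the mitochondrial deoxyguanosine kinase needed for nucleotide salvage, had 19, 30 and 28 fragments and folds of 5.48, 3.51 and 2.59. In 0610010F05Rik the summits held 33, 50 and 69 fragments, but over backgrounds of 12.7, 27.7 and 31.3, so the folds were only 2.48, 1.78 and 2.16. By fold, replicate 1 was highest at all 3 promoters. This held for its list as a whole. The median fold of other Trem2-MKO peaks, outside the recurrent regions, was 3.05, 2.63 and 2.68 in replicates 1, 2 and 3. A LysM-Cre peak lay 8.67 kb from the Zup1 region, 1.91 kb from that of Dguok and 1.38 kb from that of 0610010F05Rik.

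Of the weaker regions among the 23, those within genes were in Epb41l3, a membrane skeleton adaptor, Nrg1, a ligand of ErbB receptors, and Eml6, a microtubule-associated protein gene. Nrg1 had 9, 20 and 21 fragments, with folds of 2.77, 2.76 and 2.57. Outside genes, regions lay 149 kb from Cdk6, a kinase of the G1 phase, 593 kb from Pla2g4a, the cytosolic phospholipase that frees arachidonic acid, 4.32 kb from Bbx, an HMG-box gene, and 236 kb from Gramd3. The Bbx region had 18, 61 and 53 fragments, so it was weaker in replicate 1, with a −log10 p of 3.97 against 13.2 and 10.4.

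The remaining regions outside genes had as nearest genes Tafa2, Slitrk5, Zic4, Cdh6, Mdga2, Nmbr and Gpr26, at 161 kb to 1437 kb, and Bst1, an ADP-ribosyl cyclase gene of myeloid and stromal cells, at 0.01 kb. Bst1 had 9, 18 and 28 fragments and folds of 2.77, 2.47 and 2.59. Its 3 peaks were among the weaker of the 23, with −log10 p-values of 3.42, 3.76 and 4.94. The weakest of all was in Eml6, where replicate 1 reached a −log10 p of 2.30.

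**Figure D2:**
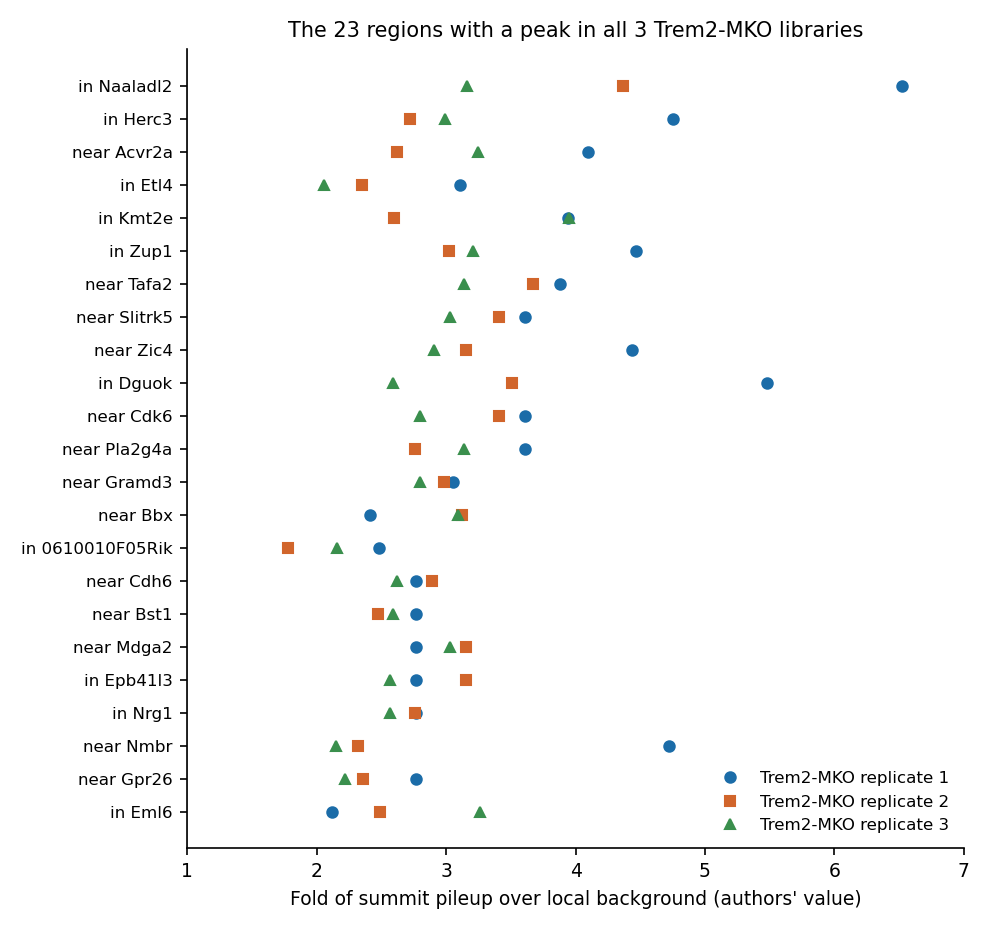
Authors' fold over local background at each of the 23 regions with a peak in all 3 Trem2-MKO libraries, ordered by the lowest −log10 p, strongest at the top. Folds run from 1.78 to 6.52. Replicate 1 has the highest fold at 17 of the 23 regions, replicate 2 at 4 and replicate 3 at 2. Replicate 1 also has the highest median fold among other peaks, outside the recurrent regions (3.05, against 2.63 and 2.68 in replicates 2 and 3).

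Among regions in 2 of 3 libraries, the strongest lay within Efcab11, a gene for an EF-hand protein (chromosome 12, 99811648 to 99812131). It had 56 fragments in replicate 1 and 105 in replicate 3 over backgrounds of 14.3 and 40.1, and replicate 2 had no peak. Second was a region in Sfi1, a centrin-binding protein gene of the centrosome (chromosome 11, 3179656 to 3180129), with 63 fragments in each of replicates 2 and 3 over backgrounds of 17.7 and 22.6. Both were deep pileups over a high background.

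After these came a region 35.6 kb from Gli2, a transcription factor of the Hedgehog pathway, with 20 and 34 fragments in replicates 1 and 2 and folds of 5.17 and 3.61. A region 29.2 kb from Gm6647 had 50 and 95 fragments but folds of 2.68 and 2.07, and one in Mtr, the methionine synthase gene, had 23 and 56. Further down came Magi3 (78.8 kb away), Osr1 (317 kb), Prkg2, a cyclic-GMP-dependent kinase gene, 4921524J17Rik and Obi1 (283 kb). The lower of the 2 −log10 p-values was 13.8 at the top of these 10 and 8.10 at the bottom.

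High local background was more frequent in the 599 regions than in other peaks. The local background is the number of fragments the authors' peak caller expected from the control. It was over 2 times the list's median, a limit chosen after the values were seen, for 8.22%, 8.23% and 10.7% of the peaks in the regions in Trem2-MKO replicates 1, 2 and 3, and for 1.46%, 2.31% and 1.60% of the other peaks. Peaks recurrent in LysM-Cre only had 3.96%, 4.60% and 6.55%, against 1.40%, 1.11% and 2.80% of the others in those lists. High background was not particular to regions of 1 genotype. Regions with peaks in 3 or more libraries of both genotypes had it at 8.72%, 10.9% and 8.82% of their Trem2-MKO peaks. The shares of their LysM-Cre peaks were 6.82%, 7.89% and 4.41%. The excess over other peaks was 7.25 ± 1.64 percentage points in Trem2-MKO and 3.27 ± 0.626 in LysM-Cre (SD, n = 3 each), and the groups did not overlap. The exact two-sided permutation p was 0.1, the smallest that 3 against 3 allow, and 0.4 after Benjamini-Hochberg adjustment over 4 measures. The regions were chosen by genotype and were not chosen anew for each assignment. Libraries of a genotype also share their regions, so their values are not independent. This p and the lack of overlap therefore cannot decide whether the genotypes differ. Nothing in the labels says which inputs were pooled as control, and the part of the control in this difference was not tested.

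In all, 56 of 599 regions (9.35%) had such a background in some library with a peak, and so did 7 of the 23 in 3 libraries (30.4%). Whether these are repeats, poorly mappable sequence or known high-signal regions was not tested. The shares were 21 of the 50 strongest regions and 4 of the 50 weakest. Summits of the 56 were a median of 55.5 bp apart, and those of the other 543 were 145 bp apart. Of the 10 strongest regions in 2 libraries, 7 were among the 56, and of the 10 strongest in 3 libraries, 5. Those 5 were the top 5 described above, in Naaladl2, Herc3, Etl4 and Kmt2e and 347 kb from Acvr2a.

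**Figure D3:**
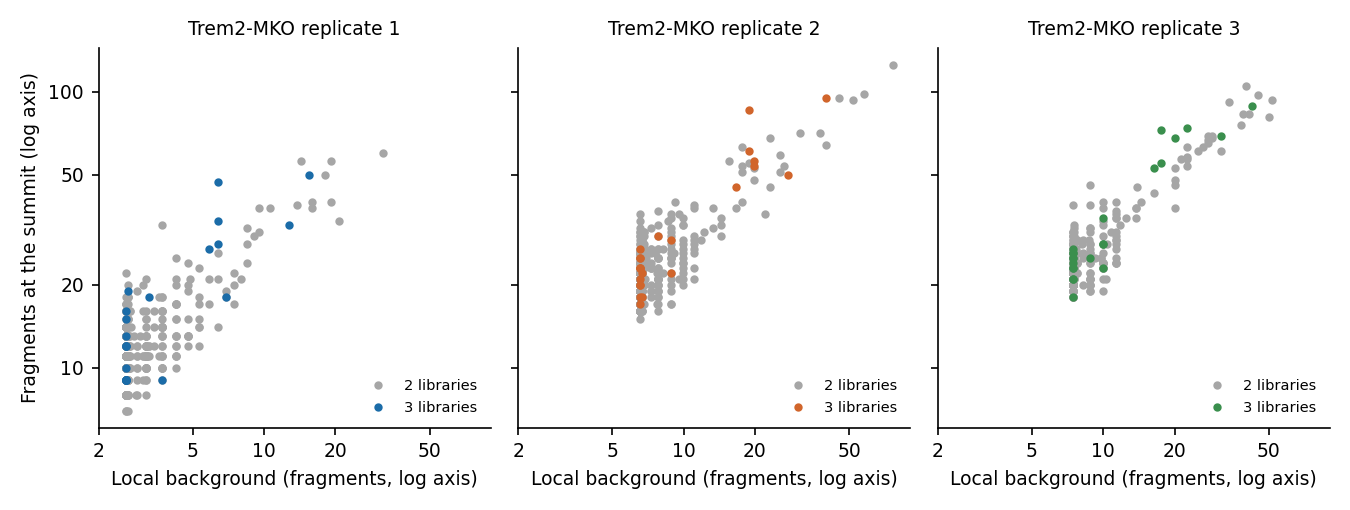
Fragments at the summit against the local background for every peak of the 599 regions, with a panel for each Trem2-MKO replicate and log axes. Most points sit at the lowest background, and a tail reaches backgrounds of 31.8, 76.4 and 51.4 fragments in replicates 1, 2 and 3.

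Regions were spread over genes much as all peaks were. Of the 599, 242 (40.4%, exact 95% interval 36.4% to 44.5%) overlapped a protein-coding gene. By library, 40.7%, 40.0% and 40.1% of the peaks in the regions and 40.9%, 42.4% and 35.3% of the other peaks of Trem2-MKO replicates 1, 2 and 3 did so. Exon, intron and untranslated part were not assigned. The 233 genes holding a region were long, with a median of 147 kb against 17.5 kb for all genes; genes with any peak of replicates 1, 2 and 3 had medians of 63.2, 98.4 and 123 kb. Outside genes, 176 regions (29.4%) lay over 100 kb and 50 (8.35%) over 500 kb from a coding gene, and so did 29.0% and 9.39% of all union regions.

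Gene ends were marked more often in the regions than in other peaks of the same libraries. A window of 1 kb either side of a gene end was overlapped by 42 of 599 regions (7.01%, exact 95% interval 5.10% to 9.36%). By library, 6.01%, 7.26% and 9.06% of the peaks in the regions lay there, against 2.98%, 4.48% and 2.78% of the other peaks of Trem2-MKO replicates 1, 2 and 3. Promoters showed the same order, with 2.10%, 3.02% and 4.03% against 0.882%, 1.85% and 0.844%. Regions of LysM-Cre only did so too: 6.37%, 6.94% and 8.35% of their peaks were at gene ends, against 3.47%, 3.20% and 4.11% of the others. The excess at gene ends was 4.03 ± 1.95 percentage points in Trem2-MKO and 3.62 ± 0.676 in LysM-Cre (SD over 3 libraries each), a difference with a two-sided exact p of 0.9 by permutation (0.9 adjusted). That at promoters was 1.86 ± 1.15 and 2.45 ± 0.415 with a two-sided exact p of 0.4 by permutation (0.8 adjusted). Here too the regions were chosen by genotype and not anew for each assignment, so these p-values cannot decide whether the genotypes differ.

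High background moved with this result. It was found at 16 of the 42 regions at gene ends (38.1%) and at 8 of the 17 at promoters. Without such regions 4.79% of 543 overlapped a gene-end window, and without such peaks the shares in Trem2-MKO replicates 1, 2 and 3 were 4.37%, 5.28% and 5.43%, against 2.72%, 3.66% and 2.28% of other peaks. Without replicate 1 the share of regions was 13.0% of 123.

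**Figure D4:**
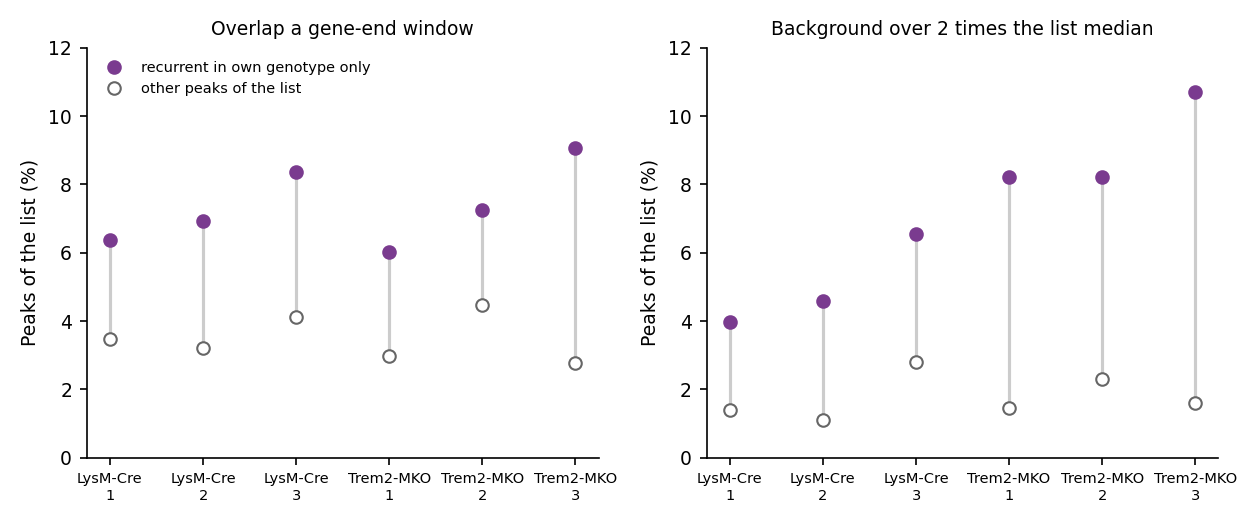
Share of the peaks of each library that overlapped a gene-end window (left) and that had a local background over 2 times the list median (right), for peaks recurrent in the library's own genotype only and for all other peaks. Filled points lie above open points in 6 of 6 libraries in both panels, with the widest gap in Trem2-MKO replicate 3.

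At promoters, summits mostly lay inside the gene. Over the 14 coding genes, 23 of 31 summits were at or after the nearest annotated start and 8 before it, with a median of 151 bp and a range of −101 to 472 bp. In all 3 replicates they were after the start at Zup1 (151, 297 and 250 bp), Dguok (72, 79 and 217 bp) and 0610010F05Rik (185, 234 and 189 bp). Both summits lay before it at Nsf, the ATPase that takes SNARE complexes apart, at −36 and −64 bp, at Prok2 (−8 and −88 bp), and at Tsc22d1, a leucine zipper gene, at −68 and −101 bp.

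**Figure D5:**
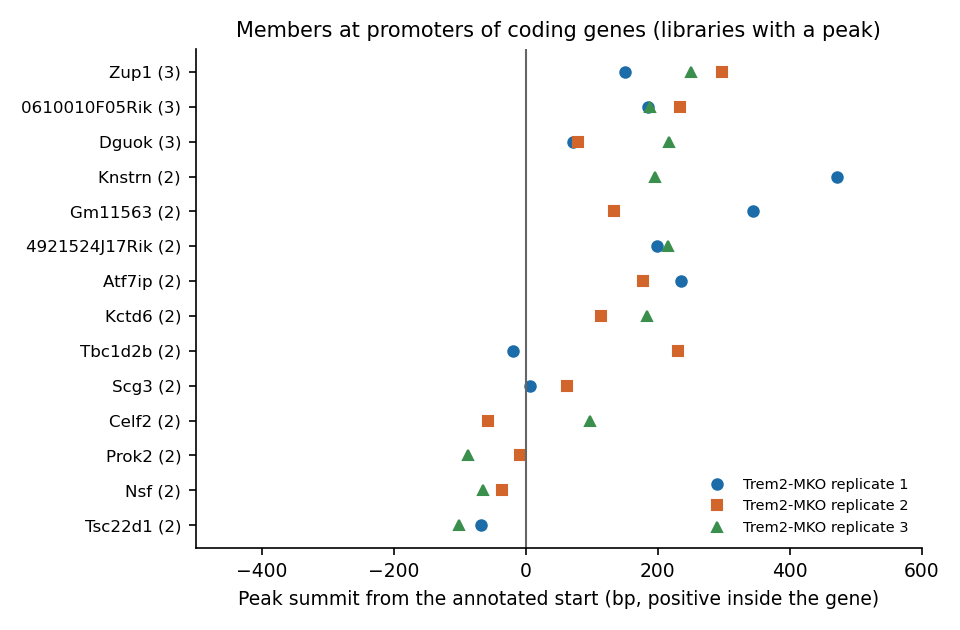
Distance of each peak summit from the nearest annotated start of 14 coding genes whose promoter a region reached, with positive values inside the gene and the number of libraries after each name. Summits of Zup1, Dguok and 0610010F05Rik lie between 72 and 297 bp after the start.

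The other coding promoters, described here after their values were seen, belonged to genes of several kinds. Atf7ip, a cofactor of the H3K9 methyltransferase SETDB1, had 17 and 30 fragments in replicates 1 and 2 with folds of 2.14 and 2.01. Kctd6, a substrate adaptor of cullin-3 ligases, had 36 and 57 in replicates 2 and 3 with folds of 1.60 and 2.45, the former at a −log10 p of 2.33. Celf2, an RNA-binding splicing regulator, had 24 and 29 in replicates 2 and 3, with folds of 3.28 and 3.49. Prok2, a secreted peptide gene also expressed by neutrophils, had 48 and 46 in replicates 2 and 3 with folds of 2.33 and 2.22. Knstrn (spindle), Scg3 (secretory granules), Tbc1d2b (a Rab regulator) and Gm11563 had summits of 11 to 68 fragments.

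Near gene ends without reaching a promoter were regions of Ocm, a calcium-binding protein gene (folds of 5.20 and 3.53 in replicates 1 and 2), and Lrp8, a lipoprotein and reelin receptor gene (2.57 and 2.37 in replicates 2 and 3). At an end of Celf4, a relative of Celf2 whose promoter was not analysed here, replicates 1 and 3 had 32 and 63 fragments. In replicates 2 and 3, Atoh7, a transcription factor of retinal ganglion cells, had 55 and 54, Ttc22 30 and 27, and Rpl23a, a ribosomal protein gene, 26 and 29.

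Genes of the tumour's cell types and of TREM2 signalling were looked up in 15 lists. Of 222 genes, 4 (1.80%) had one of the 599 regions in the gene or within 1 kb, against 1.16% of all 20665 coding genes, so the lists stood near the background. For regions of LysM-Cre only the shares were 3.60% and 3.46%. Each of the 4 genes was in its own list, and 11 lists had 0, among them macrophage and monocyte (0 of 19), lipid-associated macrophage (0 of 16), and T and NK cell (0 of 21).

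The 4 genes were Vav3, Kmt2e, Hpx and Pdcd1lg2. Vav3, from the list of TREM2 signalling, had 10 and 21 fragments in replicates 1 and 2. Pdcd1lg2, which encodes the PD-1 ligand PD-L2, had 17 and 35 in replicates 1 and 2, with folds of 2.63 and 2.33 and a region 12354 bp inside the gene. This region was among those of high local background (5.83 and 14.4, where the list medians were 2.60 and 6.55). Its −log10 q-values were 1.35 and 1.32. Hpx, the haem carrier of plasma made by hepatocytes, had 11 and 19 in replicates 1 and 2, at a region 0.728 kb outside the gene. Hpx was not without LysM-Cre peaks, since LysM-Cre replicate 1 had 1 in the gene or within 1 kb of it. At Vav3, Pdcd1lg2 and Hpx, Trem2-MKO replicate 3 had no peak in the region.

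Of the genes, 11 held 2 regions each, and most of these were very long. They were Macrod2 (1998 kb), Gpc5 (1433 kb), Sox5, Grm8, Cntnap5c, Hydin, Dcdc5, Ablim1, Pip5k1b, Efcab11 and Zbtb16. Macrod2, a macrodomain gene, had 24, 12 and 4 peaks in Trem2-MKO replicates 1, 2 and 3 and 26, 36 and 23 in LysM-Cre replicates, so it was not poor in LysM-Cre peaks. Zbtb16, a transcription factor of innate-like T cells, had 4, 4 and 3 against 3, 0 and 3 in a gene of 184 kb. Only 2 pairs of regions lay within 10 kb of each other, 2.39 kb apart in Cntnap5c and 9.77 kb apart near Zic4.

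LysM-Cre peaks lay around the regions about as often as around other Trem2-MKO regions. The nearest LysM-Cre peak was a median of 12.1 kb away (0.03 to 587 kb), and 262 regions (43.7%, exact 95% interval 39.7% to 47.8%) had one within 10 kb. Of the 37541 regions with 1 Trem2-MKO and 0 LysM-Cre libraries, 45.0% had one within 10 kb, at a median of 11.7 kb. Between 1 and 10 kb from a region lay 0.537%, 0.390% and 0.672% of the other Trem2-MKO peaks (replicates 1 to 3) and 0.561%, 0.478% and 0.490% of the LysM-Cre peaks. The groups overlapped, with means of 0.533 ± 0.141% in Trem2-MKO and 0.510 ± 0.0453% in LysM-Cre (SD, n = 3 each). Trem2-MKO minus LysM-Cre was 0.0231 percentage points. The exact two-sided permutation p was 0.8, where 0.1 is the smallest possible. The difference turned negative, to −0.0463, without Trem2-MKO replicate 3, and the share of regions with a LysM-Cre peak within 10 kb was 14.8% with lists of equal length.

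By chromosome, chromosome 3 held the most, 66 of 599 (11.0%), where Trem2-MKO replicates 1, 2 and 3 had 9.93%, 14.6% and 5.96% of their peaks. Chromosome 6 held 6.68% of the regions and 5.33%, 4.19% and 6.66% of these peaks, and chromosome 16 held 2.67%, the fewest. No region overlapped any of 919 miRNA hairpins. The regions covered only 396 kb and the share for all union regions was not counted, so nothing is read from this.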

How the data were processed

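The data were 6 lists of H3K36ac peaks, 1 for each immunoprecipitate. Per the submitters' processing notes, Trimmomatic, Bowtie2, SAMtools, Picard, MACS2 and deepTools were used with mm10. Per the names of the deposited lists, duplicates were removed and peaks called per library against a pooled control at a p-value limit of 0.01. Each deposited list gives an integer score, a fold over local background, −log10 p-values and −log10 q-values and a summit offset.

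Peaks were merged, counted and placed with Python 3.11.15 and pandas 2.3.3. Fragments were solved from fold, (pileup + 1)/(background + 1), and a Poisson p, within 0.01 on the −log10 scale; both steps were tested on simulated data. Genes and promoters came from RefSeq tables of GRCm38.p6 with no exons; promoters of chromosome 18 were not analysed here. Means were compared over the 20 assignments of 6 libraries, and p-values measure only the spread between these libraries. Named were all regions in 3 libraries, the 10 in 2 libraries and the 10 at gene ends with the highest lowest −log10 p, those at list genes, genes with 2 regions and pairs within 10 kb. Regions and lists were chosen with earlier results of these data known. The 4 comparisons of recurrent with other peaks were added after the values were seen. Their regions were not chosen anew for each of the 20 assignments.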

Additional observations from a re-analysis of the deposited data

How the results depend on the processing

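With peaks of a −log10 p of 5 or more, 161 regions were found, 9 of them in 3 libraries, with 9.94% at gene ends and 19.3% with a LysM-Cre peak within 10 kb. With lists of equal length the counts were 236 and 13, and 14.8% had a LysM-Cre peak within 10 kb. Of the 599 regions, 146 and 212 were overlapped by regions found under these settings. At 50 kb, 90.5% had a LysM-Cre peak. Without regions of high background, a setting added after the data were seen, 4.79% were at gene ends. Leaving out each library in turn gave 123 to 639 regions, 24 to 313 regions in every remaining Trem2-MKO library, 39.4% to 40.9% in genes, 5.75% to 13.0% at gene ends and 29.4% to 44.4% with a LysM-Cre peak within 10 kb. Without Trem2-MKO replicate 1, 2 or 3 the number in every remaining library was 123, 209 or 313, since 2 of 2 were asked for. Joining peaks at 50% overlap or by summits within 250 bp gave 494 and 452 regions.

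The difference in flanking peaks reversed to −0.117 percentage points with flanks of 1 to 50 kb, to −0.0881 with a −log10 p of 5 or more, and lay between −0.0463 and 0.0945 with a library left out; the cause was not tested. With the replicate block it was 0.0231 (exact sign-flip p = 1). Same-numbered libraries did not deviate together over 2403 bins of 1 Mb (Pearson r of −0.0763, −0.226 and −0.327). Other pairs across genotypes ran from −0.190 (Trem2-MKO 2 with LysM-Cre 1) to 0.328 (Trem2-MKO 2 with LysM-Cre 3). Deviations were taken from the mean of each genotype's 3 libraries, so these values depend on each other and cannot show whether libraries were processed together. Summits had a median of 11 to 23 fragments by library; sequencing depth was not measured here, and its part in the counts was not tested.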

Other observations

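On chromosomes X and Y, which the rule leaves out, 666 union regions were found. Of these, 5 had peaks of 2 or 3 Trem2-MKO and 0 LysM-Cre libraries and 4 had the reverse.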
